A study of Mus musculus with 18 samples.

Results

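The Cyp4a genes of the mouse encode the fatty acid omega-hydroxylases of the cytochrome P450 family 4, subfamily A. All 6 members sought by gene symbol, Cyp4a10, Cyp4a14, Cyp4a32, Cyp4a31, Cyp4a12a and Cyp4a12b, were found among the 19057 genes of the liver expression table, and they are described here across 6 groups of 3 libraries.

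Liver RNA was sequenced from male ICR mice, an outbred stock, at 10 weeks of age. Con mice were controls given saline and a regular diet, and A10 mice received 10 mg/kg alginate oligosaccharide (AOS). HS mice ate a high-fat diet and were injected once with streptozotocin (STZ), a poison of pancreatic beta cells, and HS+A10 mice had the diet, STZ and 10 mg/kg AOS. A10-FMT and Con-FMT mice also had the diet and STZ, and were then given intestinal microbiota by mouth, pooled from donors dosed with 10 mg/kg AOS or from control donors. High-fat diet and STZ were thus shared by 4 of the groups and were never given apart, so their parts cannot be told apart. The AOS dosing schedule of A10 and HS+A10 and the diet of A10 are not given in the sources used here. Nothing states whether the libraries of a group came from separate animals, so p-values measure the spread between libraries.

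Cyp4a enzymes sit in the membrane of the endoplasmic reticulum and put a hydroxyl group on the last carbon of medium- and long-chain fatty acids, with electrons from the reductase Por. Alcohol and aldehyde dehydrogenases turn the product into a dicarboxylic acid, which peroxisomes shorten. Cyp4a10 and Cyp4a14 are classical targets of the fatty acid receptor PPAR alpha and are known to be induced by fasting and by fibrate drugs. Cyp4a12a and Cyp4a12b are known for their higher level in males, and Cyp4a12a makes the arachidonic acid product 20-HETE.

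Values are RPKM, reads scaled by the length of the gene and by the mapped reads of the library, so that levels of different genes were compared per length. Tests were made with limma on log2(RPKM + 1) over the 10204 genes that averaged 1 RPKM or more, with Benjamini-Hochberg adjustment over these genes, and the word called stands for an adjusted p below 0.05. Of the 6 members 5 passed this filter, and Cyp4a31 did not. The sum of all RPKM in a library was 692818 to 806937, and the number of reads is unknown. The summed level of 8 hepatocyte markers was 32950 to 55370 RPKM in all 18 libraries. Libraries stood apart in 3 ways that touch the results below. Where the other Con libraries were over 0.5 log2 units apart (858 genes), Con replicate 3 had a value between theirs in 95.5% of cases, and A10 replicate 3 did so in 94.1% of 577 cases, against 24.0 to 72.9% for the other 16 libraries. Whether these 2 libraries were made apart from the others of their groups is not given in the sources used here and was not tested, and all values given with n = 3 for Con and A10, and their SDs, count them as separate libraries. Con-FMT replicate 3 held 17750 RPKM of 12 pancreatic acinar markers, against 14.1 to 49.8 RPKM elsewhere, and 15.3 RPKM of 5 adipocyte markers, against at most 2.61 RPKM. The erythroid markers reached 12050 RPKM in HS replicate 2 and ranged from 1194 to 6714 RPKM in the other libraries.

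The 6 genes lie on chromosome 4, between 115299046 and 115621602 of GRCm38, a stretch of 322.6 kb. In order along the chromosome these are Cyp4a12a (ENSMUSG00000066071, 115299046 to 115332815), Cyp4a12b (ENSMUSG00000078597, 115411624 to 115439034), Cyp4a14 (ENSMUSG00000028715, 115486200 to 115496142), Cyp4a10 (ENSMUSG00000066072, 115518264 to 115533649), Cyp4a31 (ENSMUSG00000028712, 115563649 to 115579015) and Cyp4a32 (ENSMUSG00000063929, 115600969 to 115621602). Cyp4a14 is on the minus strand and the other 5 are on the plus strand. The coding sequences fall into 3 sets. Those of Cyp4a10, Cyp4a32 and Cyp4a31 were 96.0 to 97.2% identical to each other, those of Cyp4a12a and Cyp4a12b differed at 23 of 1527 bases, and that of Cyp4a14 was 75.8 to 76.4% identical to the other 5.

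The codons around the cysteine that holds the heme iron show how close the members are. The 60 coding bases below are exonic and are shown for 1 gene of each set, with capitals where a base differs from Cyp4a10. Over these bases Cyp4a31 and Cyp4a32 were identical to Cyp4a10, and Cyp4a12b was identical to Cyp4a12a.
Cyp4a10, coding bases 1330 to 1389: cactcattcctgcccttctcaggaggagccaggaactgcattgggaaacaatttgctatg
Cyp4a12a, coding bases 1327 to 1386: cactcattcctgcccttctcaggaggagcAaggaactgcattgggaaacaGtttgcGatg
Cyp4a14, coding bases 1324 to 1383: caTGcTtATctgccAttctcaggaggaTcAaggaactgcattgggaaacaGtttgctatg

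Other stretches set the close copies apart, and they decide how far a short read can tell one gene from the next. The windows of 60 bases shown were picked as those in which the members of a set differ most. In the window for the Cyp4a10 set, Cyp4a32 differed from Cyp4a10 at 9 bases and Cyp4a31 at 2. In the window for the Cyp4a12 pair the members differed at 4 bases. Over all 1530 coding bases Cyp4a32 differed from Cyp4a10 at 43 and Cyp4a31 at 52. Capitals mark differences from the first gene of each set.
Cyp4a10, coding bases 202 to 261: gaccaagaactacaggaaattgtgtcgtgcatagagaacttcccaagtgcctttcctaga
Cyp4a32, coding bases 202 to 261: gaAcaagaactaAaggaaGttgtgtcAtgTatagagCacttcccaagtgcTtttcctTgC
Cyp4a31, coding bases 202 to 261: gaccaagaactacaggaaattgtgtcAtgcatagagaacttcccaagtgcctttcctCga
Cyp4a12a, coding bases 625 to 684: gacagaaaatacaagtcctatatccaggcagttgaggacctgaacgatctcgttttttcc
Cyp4a12b, coding bases 625 to 684: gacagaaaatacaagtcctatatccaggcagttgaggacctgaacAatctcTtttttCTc

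Over the whole transcripts, the share of 50-base stretches found unchanged in another member was 0% for Cyp4a14, 30.5% for Cyp4a10, 46.8% for Cyp4a32, 20.1% for Cyp4a31, 48.9% for Cyp4a12a and 49.4% for Cyp4a12b. With up to 3 mismatches the share rose to 3.6% for Cyp4a14 and lay between 66.3 and 95.1% for the others. How reads that matched several genes were counted is not given in the sources used here. The values of Cyp4a10, Cyp4a32 and Cyp4a31, and those of Cyp4a12a and Cyp4a12b, may therefore hold reads of each other, whereas Cyp4a14 shares no exact stretch of this length with them.

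Cyp4a10, a PPAR alpha target, varied 670-fold between its lowest and highest library. It was at 1.29, 2.76 and 2.77 RPKM in Con and at 17.2, 3.72 and 8.03 RPKM in A10. In HS it was at 241, 182 and 35.5 RPKM, and in HS+A10 at 864, 541 and 501 RPKM. All HS and HS+A10 libraries were above all Con and A10 libraries, HS replicate 3 was the lowest of the 6, and HS+A10 did not overlap HS. By mean the recipients lay in between, at 48.1, 16.4 and 4.99 RPKM in A10-FMT and at 47.7, 8.84 and 13.3 RPKM in Con-FMT, replicate 1 was the highest in both, and their libraries overlapped those of A10 and of HS. By mean RPKM the gene ranked 8347 of all genes in Con and 122 in HS+A10.

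Cyp4a14, the other classical PPAR alpha target, was also highest by mean in HS+A10, then HS, and lowest in A10 and Con, with the mean of A10-FMT slightly above that of Con-FMT. It was at 0.20, 0.57 and 0.55 RPKM in Con, at 8.78, 1.06 and 3.37 RPKM in A10, and at 127, 139 and 11.4 RPKM in HS. HS+A10 had 386, 283 and 432 RPKM, A10-FMT 20.8, 5.59 and 1.13 RPKM, and Con-FMT 18.2, 2.84 and 4.56 RPKM. HS replicate 3 was the lowest of the HS libraries, and it lay below the highest library of each recipient group. The gene ranked 11252 by mean RPKM in Con and 213 in HS+A10.

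Cyp4a32, the close copy of Cyp4a10, had a higher level in Con than Cyp4a10 and Cyp4a14 and varied less, 12.2-fold between its extremes. It was at 11.2, 24.2 and 17.7 RPKM in Con, at 20.2, 34.97 and 28.1 RPKM in A10, at 115, 47.8 and 40.2 RPKM in HS and at 137, 129 and 95.9 RPKM in HS+A10. A10-FMT had 47.9, 47.1 and 25.9 RPKM, and Con-FMT 35.5, 38.0 and 23.9 RPKM. Neighbouring groups overlapped at every step of the order HS+A10, HS, A10-FMT, Con-FMT, A10, Con. Cyp4a31, the remaining copy, was scarce, at 0.03 to 4.13 RPKM over the 18 libraries with a median of 0.315 RPKM. Its highest values were single libraries, HS replicate 2 at 4.13 RPKM and HS+A10 replicate 1 at 2.55 RPKM, and in 16 of the 18 libraries it was below 2 RPKM.

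**Figure D1:**
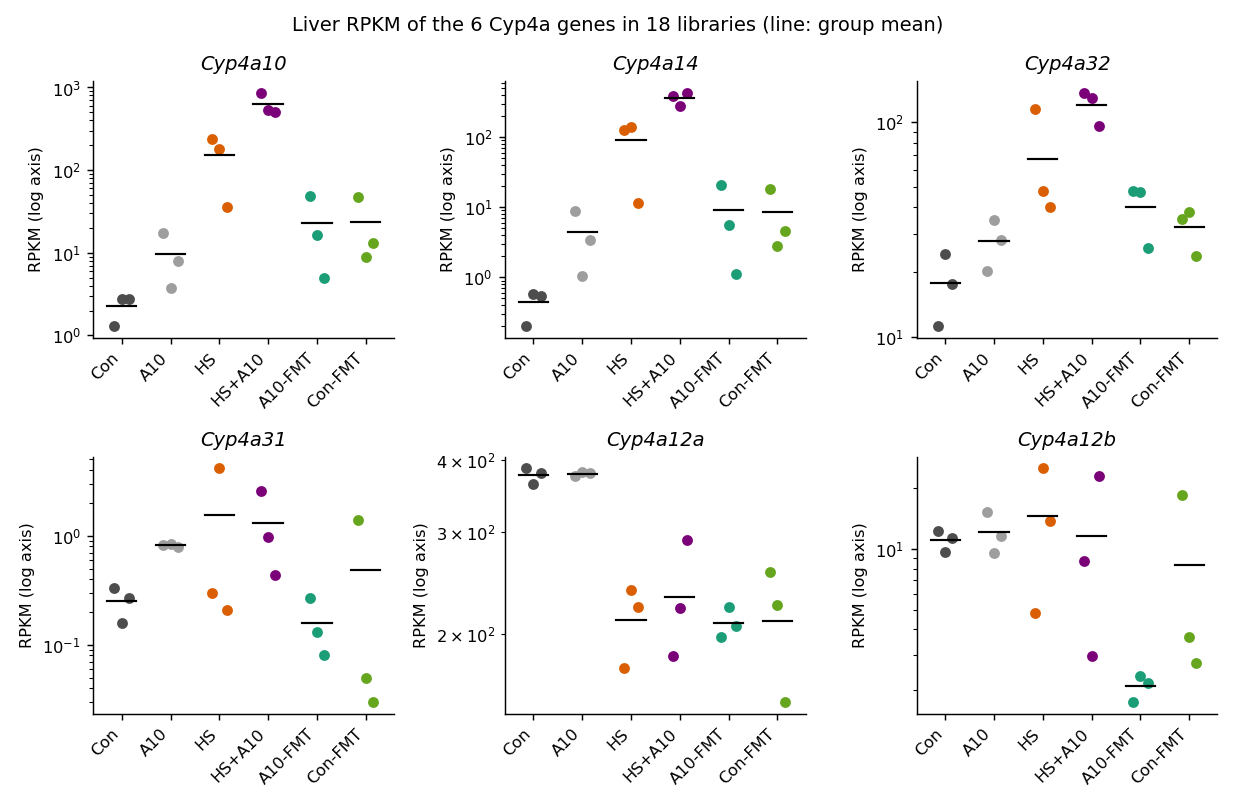
RPKM of each Cyp4a gene (log axes with a separate range per panel) in the 3 libraries of each group, with points for libraries 1 to 3 from left to right and a line for the group mean. Cyp4a10 and Cyp4a14 were highest in HS+A10 and lowest in Con, whereas all libraries of Cyp4a12a in the 4 groups on diet and STZ (152.5 to 291 RPKM) lay below those of Con and A10 (363 to 387 RPKM).

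Cyp4a12a, the abundant male-type member, was at 387, 363 and 379 RPKM in Con and at 375, 381 and 379 RPKM in A10, where it ranked 208 and 212 by mean RPKM. The groups on diet and STZ were all lower, at 175, 238 and 223 RPKM in HS, 183, 222 and 291 RPKM in HS+A10, 197, 223 and 206 RPKM in A10-FMT and 256, 224 and 152.5 RPKM in Con-FMT. None of these 12 libraries reached the lowest library of Con or A10, and the 4 groups overlapped each other. The lowest value was that of Con-FMT replicate 3, the library with the pancreatic markers. Cyp4a12b was at 12.4, 9.73 and 11.3 RPKM in Con and 15.3, 9.59 and 11.6 RPKM in A10. It scattered widely in HS (4.83, 25.1 and 13.8 RPKM), HS+A10 (8.73, 2.97 and 23.1 RPKM) and Con-FMT (18.6, 3.66 and 2.72 RPKM), and was low in every A10-FMT library (1.75, 2.34 and 2.18 RPKM).

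Both the makeup of the family and its sum differed between the groups. The summed RPKM of the 6 genes was 408 ± 6.77 (SD, n = 3) in Con and 433 ± 3.51 in A10. It was 541 ± 188 in HS and 1368 ± 202.5 in HS+A10, against 284 ± 90.2 in Con-FMT and 284 ± 39.0 in A10-FMT. Cyp4a12a made up 92.2% ± 1.60 of this sum in Con and 87.4% ± 1.42 in A10. In HS it made up 44.2% ± 22.0, in HS+A10 17.4% ± 5.20, in Con-FMT 75.3% ± 6.72 and in A10-FMT 74.6% ± 11.7. Cyp4a10, Cyp4a14 and Cyp4a32 together made up 5.02% ± 1.91 of the sum in Con, 52.6% ± 23.4 in HS and 81.7% ± 5.62 in HS+A10, as a description without a test. In HS replicate 3 these 3 genes were 26.9% of the sum, against 58.0 and 72.8% in the other HS libraries. In bulk tissue a smaller number of cells of a kind and less RNA per cell cannot be told apart.

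**Figure D2:**
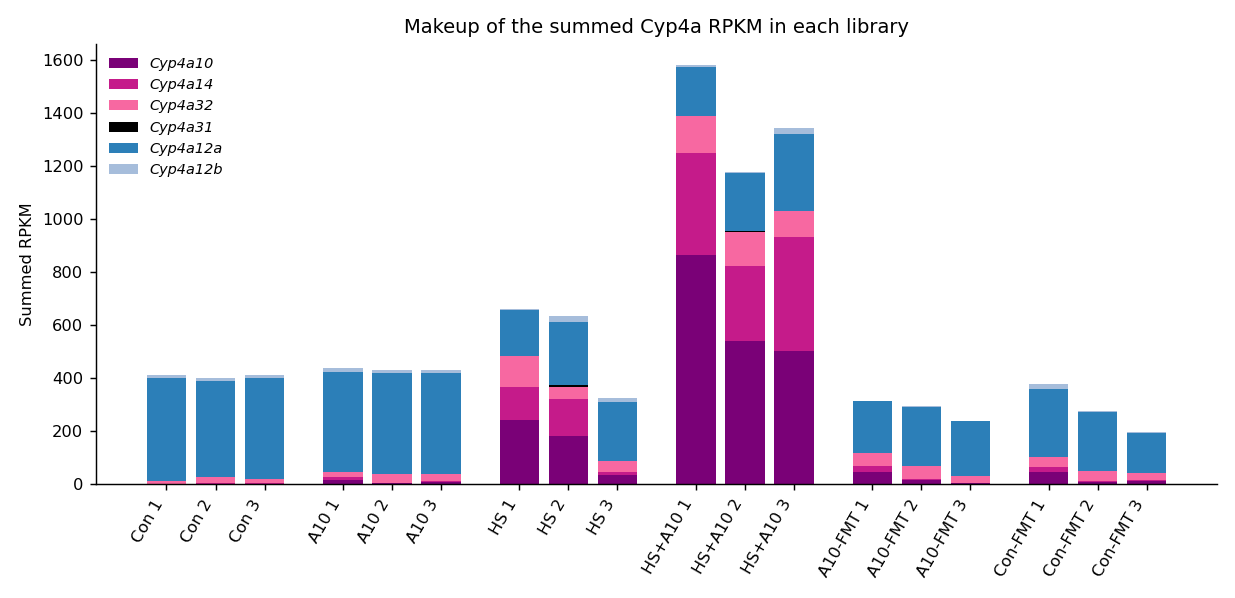
Summed RPKM (linear axis from 0) of the 6 Cyp4a genes in each of the 18 libraries, stacked by gene. Cyp4a12a (blue) fills most of each bar in Con and A10, and Cyp4a10, Cyp4a14 and Cyp4a32 (purple to pink) fill 76.6 to 87.7% of the bars in HS+A10.

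The comparison of HS with Con asks what diet and STZ did to the livers of mice without AOS. Cyp4a10, Cyp4a14 and Cyp4a32 were higher in HS and Cyp4a12a was lower. Of the 5 members tested 4 were called, 3 higher and 1 lower, in a comparison in which 17.7% of all tested genes were called (15.9% higher and 1.87% lower). Cyp4a10 rose from a mean of 2.27 ± 0.852 to 153 ± 106 RPKM (SD, n = 3), or by 5.20 ± 0.80 (SE) on the log2 scale with an adjusted p of 9.64e-04 in limma. Cyp4a14 rose from 0.440 ± 0.208 to 92.5 ± 70.4 RPKM, or by 5.41 ± 0.92 (adjusted p = 0.0018). Cyp4a32 rose from 17.7 ± 6.51 to 67.5 ± 40.9 RPKM, or by 1.78 ± 0.36 (adjusted p = 0.00585). Cyp4a12a fell from 376 ± 12.3 to 212 ± 32.9 RPKM, with a log2 difference of -0.84 ± 0.18 (adjusted p = 0.00657). These fold changes are on the log2(RPKM + 1) scale, which understates those of genes near 1 RPKM. HS and Con did not overlap for these 4 members, as for 36.8% of all tested genes, and with 3 libraries a side an exact permutation test (two-sided) cannot go below its p of 0.1 for each of them. Cyp4a12b did not pass the test, with a log2 difference of 0.12 (95% confidence interval -1.25 to 1.49). Over all tested genes, 1618 were called higher and 191 lower, but 398 and 486 after median scaling and 486 and 390 after quantile normalization. The calls in total numbered 847 without Con replicate 1, 935 without Con replicate 3, 700 without Con replicate 3 and A10 replicate 3, and 1066 without HS replicate 2. The summed erythroid markers were at 4214, 12050 and 6714 RPKM in HS, above the 1535 to 2958 RPKM of Con, with Hba-a1 called among 5 tested. Those of stellate cells and fibroblasts were at 111.6 to 175.3 RPKM in HS and at 71.97 to 83.11 RPKM in Con, with Dcn and Reln called higher among 6 tested, and the part of either list in the Cyp4a differences was not tested. The median log2 difference of all tested genes was 0.14, and those of A10-FMT and Con-FMT against HS were -0.16 and -0.12. Without Con replicate 3 and A10 replicate 3, a choice made after seeing the data, the 4 members were called again, with log2 differences of 5.32, 5.46, 1.81 and -0.83 (adjusted p = 0.01, 0.0145, 0.0314 and 0.0369, limma).

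HS+A10 was compared with A10 for the same question in mice given AOS. Again 4 members were called, Cyp4a10, Cyp4a14 and Cyp4a32 higher and Cyp4a12a lower, where 20.9% of all tested genes were called (13.6% higher and 7.28% lower, and 1243 against 1151 genes after median scaling). Cyp4a10 was 65.8-fold and Cyp4a14 83.4-fold higher by mean RPKM, with log2 differences of 6.07 ± 0.80 (SE, adjusted p = 1.64e-04 in limma) and 6.35 ± 0.92 (adjusted p = 3.22e-04). Cyp4a32 differed by 2.10 ± 0.36 (adjusted p = 0.00117) and Cyp4a12a by -0.73 ± 0.18 (adjusted p = 0.00912). Cyp4a12a was no longer called without HS+A10 replicate 1, with a log2 difference of -0.57 and an adjusted p of 0.0523. The difference between the effects of diet and STZ with and without AOS was tested directly as an interaction. It was called for 0 of the 5 members, for 0.0098% of all tested genes (1 gene, but 118 without HS replicate 1, 15 without HS+A10 replicate 2 and 0 without HS replicate 3), and for 0 members at an unadjusted p under 0.05. For Cyp4a10 it was 0.87 (95% confidence interval -1.53 to 3.26) and for Cyp4a14 0.94 (-1.82 to 3.70) on the log2 scale, which leaves room for a difference in either direction.

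AOS itself was compared in mice on diet and STZ (HS+A10 with HS) and in mice without them (A10 with Con). In HS+A10 the means of Cyp4a10, Cyp4a14 and Cyp4a32 were 4.16-fold, 3.97-fold and 1.79-fold those of HS, and 0 of 5 members were called, where 7.32% of all tested genes were. These 747 genes became 76 with only the compared groups in the fit, 152 without HS+A10 replicate 1, 407 without HS+A10 replicate 2, 216 without HS replicate 3, 221 without HS replicate 2 and 1233 without HS replicate 1, and more of them were lower than higher, but 579 were called higher and 356 lower after median scaling. All 3 had an unadjusted p under 0.05 in limma. The log2 differences were 2.39 (95% confidence interval 0.70 to 4.09, adjusted p = 0.0773) for Cyp4a10, 2.58 (0.63 to 4.53, adjusted p = 0.0961) for Cyp4a14 and 0.97 (0.19 to 1.74, adjusted p = 0.116) for Cyp4a32. The libraries of Cyp4a10 and Cyp4a14 did not overlap between the groups, and all of HS+A10 was above all of HS for 11.6% of tested genes. Without HS replicate 1, Cyp4a10 and Cyp4a32 were called (2 members in all), with the replicate block Cyp4a10 alone was called (adjusted p = 0.04), and over all alternatives its adjusted p ranged from 0.04 to 0.296. Cyp4a12a differed by 0.12 (-0.26 to 0.49). In A10 compared with Con, 0 of 5 members were called by limma, with 0 at an unadjusted p under 0.05, where 0.0686% of all genes were called. Every A10 library was above every Con library for Cyp4a10 and Cyp4a14, as for 19.6% of tested genes, and the log2 differences were 1.53 (-0.17 to 3.22) and 1.64 (-0.31 to 3.59). Cyp4a12a differed by 0.01 (-0.37 to 0.39) between A10 and Con.

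Microbiota recipients were compared with HS mice, and both comparisons share the HS libraries. In A10-FMT, Cyp4a10, Cyp4a14 and Cyp4a12b were lower than in HS and called, 3 of 5 members, where 23.1% of all genes were called and 21% were called lower. In Con-FMT, Cyp4a10 and Cyp4a14 were lower and called, 2 of 5 members, where 23.6% of all genes were called and 19% were called lower. Cyp4a10 differed from HS by -2.77 ± 0.80 (SE, adjusted p = 0.0222 in limma) in A10-FMT and by -2.63 ± 0.80 (adjusted p = 0.026) in Con-FMT on the log2 scale, with means 6.60-fold and 6.57-fold below HS. Cyp4a14 differed by -3.17 ± 0.92 (adjusted p = 0.0228) and -3.03 ± 0.92 (adjusted p = 0.026), with means 10.1-fold and 10.8-fold below HS. These shares depended on the scaling. In A10-FMT 2145 of 2358 called genes were lower, but after median scaling 639 were higher and 516 lower, and after quantile normalization 573 and 541. In Con-FMT 1943 of 2413 were lower, but after median scaling 858 were higher and 1240 lower, and after quantile normalization 827 and 1026. The total for A10-FMT was 1479 without HS replicate 2, 1522 without HS replicate 3, 1338 without A10-FMT replicate 2 and 1297 without A10-FMT replicate 3. Both genes overlapped between HS and the recipients, since HS replicate 3 was below the highest recipient library.

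These calls rested on few libraries. Without HS replicate 1, the adjusted p of Cyp4a10 was 0.0724 for A10-FMT and 0.104 for the other recipients, and without HS replicate 2 it was 0.0791 and 0.0882. Without recipient replicate 2 it was 0.0595 and 0.103, and without recipient replicate 3 it was 0.112 and 0.0671. Cyp4a14 lost its call under the same omissions, with adjusted p between 0.0621 and 0.113. Cyp4a12b was lower in A10-FMT than in HS, with a log2 difference of -2.09 ± 0.64 (SE, adjusted p = 0.0298 in limma) and no overlap, as for 32.8% of tested genes. Its call was lost on leaving out HS replicate 2 or 3 or any A10-FMT replicate, with adjusted p from 0.0609 to 0.124, and after median scaling, quantile normalization or without a filter, with adjusted p from 0.0565 to 0.0686. Cyp4a12a did not differ detectably from HS in the recipients, with log2 differences of -0.01 (95% confidence interval -0.39 to 0.36) for A10-FMT and -0.03 (-0.40 to 0.35) for Con-FMT, and the sign changed with the scaling of the libraries. Cyp4a32 differed by -0.62 (-1.40 to 0.15) and -0.90 (-1.68 to -0.13), with adjusted p of 0.217 and 0.085.

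The donor was compared between the recipient groups. None of the 5 members was called by limma (0 also at an unadjusted p under 0.05), where 18.8% of all genes were (687 genes with only these groups in the fit, against 1914). A10-FMT minus Con-FMT was -0.14 for Cyp4a10 (95% confidence interval -1.83 to 1.55), -0.14 for Cyp4a14 (-2.09 to 1.81), 0.28 for Cyp4a32 (-0.50 to 1.05), 0.02 for Cyp4a12a (-0.36 to 0.39) and -1.18 for Cyp4a12b (-2.55 to 0.19) on the log2 scale. The intervals of Cyp4a10 and Cyp4a14 are wide enough to hold differences of more than 1 log2 unit in either direction. That of Cyp4a12a is narrow. Cyp4a12b was lower in all A10-FMT libraries than in all Con-FMT libraries, as 19.4% of tested genes were.

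Both recipient groups were also compared with Con, whose libraries they share. Cyp4a12a was lower and called in both, with log2 differences of -0.85 ± 0.18 (SE, adjusted p = 0.00568 in limma) for A10-FMT and -0.86 ± 0.18 (adjusted p = 0.0023) for Con-FMT, and without Con-FMT replicate 3 the latter was -0.65 (adjusted p = 0.00935). In each comparison 2 of 5 members were called, 1 higher and 1 lower, where 14.3% of all genes were called in A10-FMT (6.72% higher and 7.62% lower) and 25.8% in Con-FMT (14.4% higher and 11.5% lower). The higher member was Cyp4a32 in A10-FMT, with a log2 difference of 1.15 ± 0.36 (adjusted p = 0.0456), and Cyp4a10 in Con-FMT, with 2.57 ± 0.80 (adjusted p = 0.0264). Neither held without Con replicate 3 and A10 replicate 3 (adjusted p = 0.132 and 0.0714), and each was also lost without Con replicate 1, Con replicate 3 or recipient replicate 1, and Cyp4a32 without A10-FMT replicate 2. Cyp4a10 and Cyp4a14 in the recipients lay above every Con library, at 10.2-fold and 20.8-fold the Con mean for A10-FMT and 10.2-fold and 19.4-fold for Con-FMT. Such a separation upward was found for 14.3% and 22.5% of tested genes.

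**Figure D3:**
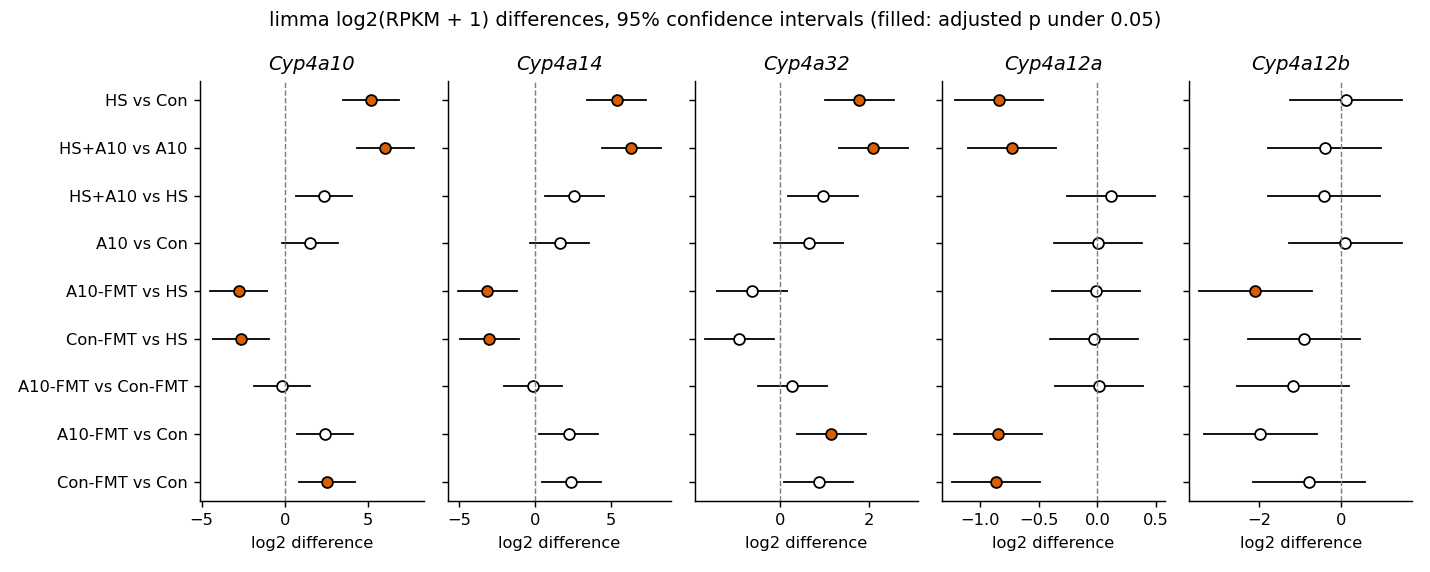
Log2(RPKM + 1) differences from limma for the 5 members tested (one panel each, with its own horizontal scale) in the 9 comparisons between groups, with 95% confidence intervals as bars and filled points where the adjusted p was under 0.05. Cyp4a10, Cyp4a14 and Cyp4a32 were called higher and Cyp4a12a lower in HS against Con and in HS+A10 against A10, and no point is filled for A10-FMT against Con-FMT.

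Cyp4a10 and Cyp4a14 followed each other library by library. After the group means were taken out, their log2 values had a correlation of r = 0.97 over the 18 libraries, which is a description, since libraries of a group share their treatment and each library its depth. The ratio of Cyp4a10 to Cyp4a14 RPKM was 5.44 ± 0.878 in Con, 2.62 ± 0.800 in A10, 2.11 ± 0.915 in HS and 1.77 ± 0.553 in HS+A10 (SD, n = 3). It was 2.89 ± 0.247 in Con-FMT and 3.22 ± 1.08 in A10-FMT. The correlation within groups was 0.45 between Cyp4a10 and Cyp4a32, 0.74 between Cyp4a12a and Cyp4a12b, and -0.07 between Cyp4a10 and Cyp4a12a. The pairs with 0.45 and 0.74 are close copies that may hold reads of each other. Cyp4a14 has no exact 50-base stretch in common with Cyp4a10. With up to 3 mismatches, 13 of 2060 Cyp4a10 stretches matched Cyp4a14. The part of shared reads in any of these correlations was not tested.

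**Figure D4:**
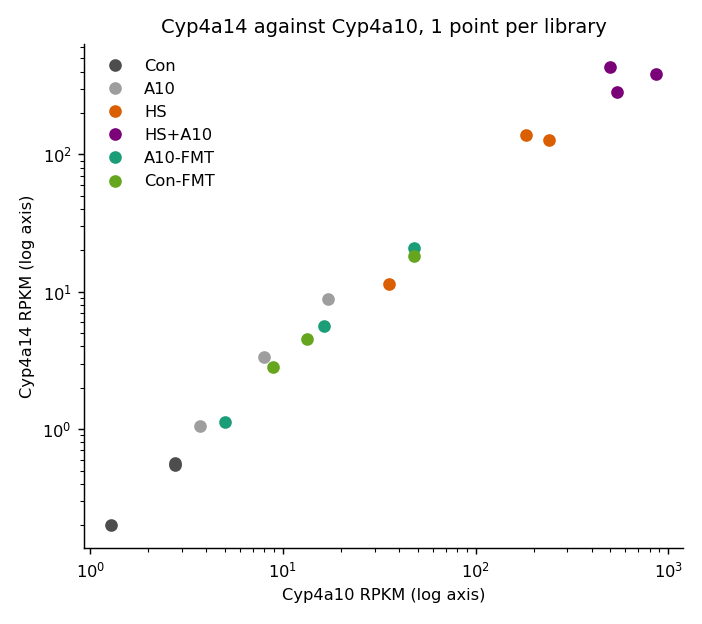
Cyp4a14 against Cyp4a10 RPKM (both on log axes), 1 point per library, coloured by group. The 18 libraries lie along a line from Con (1.29 and 0.20 RPKM at the lowest) to HS+A10, and HS replicate 3 (35.5 and 11.4 RPKM) lies among the recipients.

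Outside the family, the genes whose log2 values over the 18 libraries were most like Cyp4a10 were Agpat3 (Pearson r 0.97), Smpdl3a (0.965), Acot2 (0.963), Psap (0.962) and Hsdl2 (0.96). For Cyp4a14 they were Hsdl2 (0.961), Tmem56 (0.96), Smpdl3a (0.96), Acot2 (0.958) and Serinc2 (0.953). Acot2, a mitochondrial acyl-CoA thioesterase, had group means of 1.12 RPKM in Con, 4.19 in HS, 8.43 in HS+A10, 1.97 in Con-FMT and 1.87 in A10-FMT. The genes most like Cyp4a12a were Rdh11 (0.913), Raet1e (0.905), Pmvk (0.904), Pgd (0.901) and Sc5d (0.896). Pmvk and Sc5d encode enzymes of cholesterol synthesis, and Sc5d had group means of 168 RPKM in Con, 184 in A10, 79.8 in HS, 54.3 in HS+A10, 36.2 in Con-FMT and 62.7 in A10-FMT. For Cyp4a12b the likeness was weaker, with Rock1 (0.783), Mob3a (0.762), Fam126a (0.761), Exoc5 (0.759) and Idi1 (0.756). These values are descriptions over libraries that share their groups.

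The receptors and redox partners that serve the family were followed as a list of 14 genes, of which 13 were tested. In HS compared with Con 3 were called, beside 17.7% of all tested genes. Rxra, the partner receptor of PPAR alpha, was higher (log2 0.35, adjusted p = 0.00521), and so was Por (1.02, adjusted p = 0.0262), while Ppard was lower (-2.11, adjusted p = 1.48e-05). Rxra was not called after median scaling (adjusted p = 0.154), and Por was not called without Con replicate 1 or 3 or HS replicate 2 or 3 (adjusted p from 0.0635 to 0.0882). Ppara itself was at 12.01, 19.5 and 17.0 RPKM in Con and at 23.0, 17.5 and 16.7 RPKM in HS, and was not called.

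Ppara was at 42.9, 41.8 and 37.8 RPKM in HS+A10, above every HS library, and was called (1.07, adjusted p = 0.0106 in limma, and 0.0521 without HS+A10 replicate 1). The coactivator Ppargc1b (0.67, adjusted p = 0.00622 in limma), Nr1i3 and Nr1h4 were also called higher, 4 in all, beside 7.32% of all tested genes. This count was 2 without HS replicate 2 or HS replicate 3 and 1 without HS+A10 replicate 1. In A10-FMT compared with HS 5 were called, beside 23.1% of all tested genes, with Ppargc1b, Ppara and Nr1i3 higher and Ncor1 and Ppard lower. This count was 1 without HS replicate 3, 2 without A10-FMT replicate 1 or 2, and 3 without HS replicate 2 or A10-FMT replicate 3. Ppara was at 36.4, 29.8 and 28.4 RPKM in A10-FMT (0.70, adjusted p = 0.0283). Its call was lost on leaving out HS replicate 2 or 3 or any A10-FMT replicate, with adjusted p from 0.0522 to 0.0937. In Con-FMT compared with HS, Hnf4a (0.53, adjusted p = 0.00212 in limma) and Por were called higher and Ncor1 lower, beside 23.6% of all tested genes. The count of 3 was 1 without Con-FMT replicate 3. Ppargc1a was at 0.53 to 1.46 RPKM in all libraries and was not tested.

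PPAR alpha targets outside the family were counted as a list of 47 genes, of which 43 were tested. The list median in HS compared with Con was 0.72 on the log2 scale against 0.14 for all genes. With 15.9% of all tested genes called higher, 31 of the list were called, all higher. Examples are the fatty acid transporter Slc27a2 (1.13, adjusted p = 0.00123), the carnitine transferase Cpt1a (1.15, adjusted p = 0.00127) and Hadhb of mitochondrial beta-oxidation (0.93, adjusted p = 0.00158). The count was 15 after median scaling, 6 with HS and Con alone in the fit, 13 without Con replicate 1, 17 without Con replicate 3, 16 without HS replicate 1 and 12 without Con replicate 3 and A10 replicate 3, and no target was called lower in any of these. In HS+A10 compared with A10, 36 were called higher and Pdk4 lower (-0.95, adjusted p = 0.00757 in limma), beside 13.6% and 7.28% of all tested genes.

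In HS+A10 compared with HS 20 of the 43 targets were called, all higher, beside 7.32% of all tested genes. The acyl-CoA thioesterases Acot3 (2.56, adjusted p = 0.00305) and Acot1 (1.73, adjusted p = 0.00943) and the fatty acid receptor Cd36 (1.57, adjusted p = 0.0113) were among them. This count varied from 2 without HS+A10 replicate 1 to 31 without HS replicate 1, was 4 to 11 without any other library of these groups, 10 without Con replicate 3 and A10 replicate 3, and 3 with only these groups in the fit. In A10 compared with Con 0 of 43 were called by limma, and 8 were higher at an unadjusted p under 0.05.

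In the recipients compared with HS, 7 of 43 targets were called lower in A10-FMT and 8 lower and 1 higher in Con-FMT, beside 21% and 19% of all tested genes called lower. The lipid droplet proteins Plin2 (-0.92 and -1.03) and Plin5 (-1.03 and -0.85) were called lower in both. Plin2 was not called in A10-FMT without A10-FMT replicate 3 (adjusted p = 0.063) or after median scaling (0.056), and Plin5 was not called in Con-FMT without Con-FMT replicate 2 (0.0712) or HS replicate 1 (0.0624), by limma. The list medians, -0.12 and -0.17, were near those of all genes, -0.16 and -0.12. Without HS replicate 3 the counts were 11 and 15, all lower, and without HS replicate 2 they were 4 and 5. Without HS replicate 1, A10-FMT had 3 calls higher and 3 lower, and Con-FMT had 2 and 1. After median scaling A10-FMT had 2 calls in each direction, and Con-FMT had 2 higher and 6 lower. Without A10-FMT replicate 3 the first was 2, and without Con-FMT replicate 2 the second was 4. With only the compared groups in the fit they were 2 and 0.

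**Figure D5:**
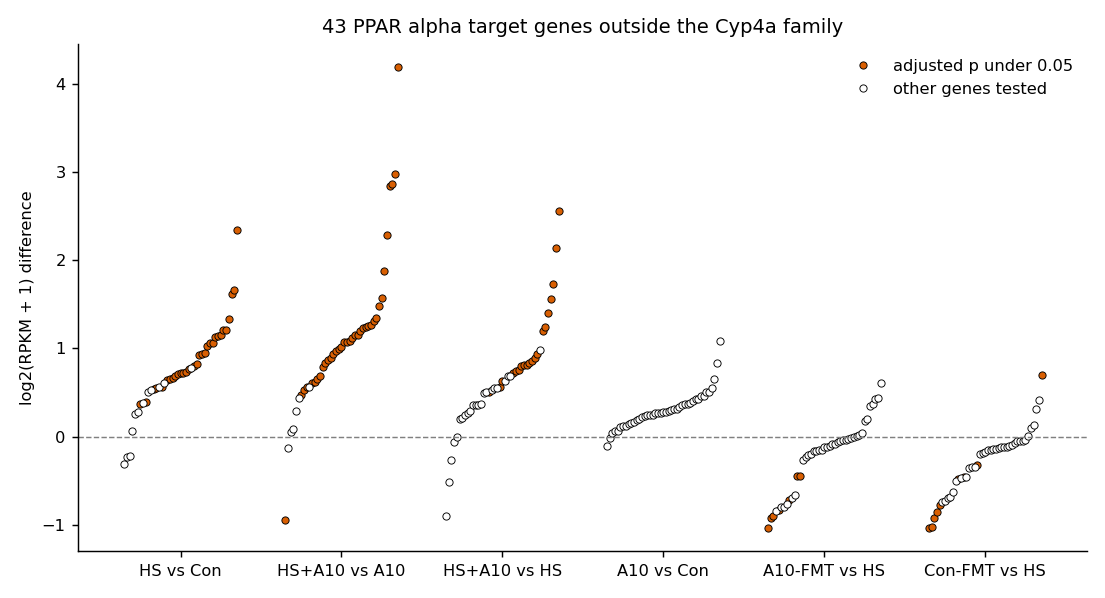
Log2(RPKM + 1) differences of the 43 tested PPAR alpha targets outside the family in 6 comparisons, sorted within each, 1 point per gene, filled where the adjusted p was under 0.05. Filled points number 31 in HS against Con and 20 in HS+A10 against HS, all above 0, and 0 in A10 against Con. Several comparisons share the HS or the Con libraries.

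The steps that follow omega-hydroxylation were a list of 27 genes, from dehydrogenases to peroxisomal transport and oxidation, with 24 tested. Of these 11 were called higher in HS than in Con and 0 lower, with a list median of 0.53, beside 15.9% of all tested genes called higher. The fatty aldehyde dehydrogenase Aldh3a2 rose 2.99-fold, from 39.1 ± 7.36 to 117 ± 45.2 RPKM (adjusted p = 0.00207 in limma). In HS+A10 compared with HS 11 were again called higher, where 7.32% of all tested genes were called. The peroxisomal transporter Abcd3 was 1 of the 11 (0.57, adjusted p = 0.00808 in limma). The first count was 7 without Con replicate 3 or HS replicate 1. The second was 3 without HS replicate 3 or HS+A10 replicate 1, 4 without HS replicate 2 and 7 without HS+A10 replicate 2. Of 15 other P450 genes listed as fatty acid hydroxylases, 7 were tested. Beside 17.7% of all tested genes, 3 of the 7 were called in HS compared with Con, all higher. These were Cyp2e1 (0.71, adjusted p = 0.00273 in limma), Cyp4f15 (0.80, adjusted p = 0.0087) and Cyp4f17. The call of Cyp4f17 was lost after median scaling (adjusted p = 0.208), after quantile normalization (0.198), without a filter (0.0567), and without Con replicate 1 or 3 or HS replicate 1 or 3 (0.0764 to 0.12).

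Neighbours of the 6 genes on chromosome 4 were a list of 18, Cyp4a29 and Cyp4a30b among them, of which 11 were tested. In HS compared with Con Cmpk1 was called higher (0.25, adjusted p = 0.0432) and Pdzk1ip1 lower (-0.999, adjusted p = 0.0338) by limma, beside 17.7% of all tested genes called. The list median was 0.06. The count of 2 was 0 or 1 when any of the 6 libraries was left out. In A10-FMT compared with HS 3 were called, all lower, beside 21% of all tested genes called lower. This count was 0 with only the compared groups in the fit.

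Because Cyp4a12a is known as a male-type gene, other sex-biased liver genes were counted. Of 16 male-biased genes tested, 3 were called lower in HS than in Con and 0 higher, namely Ugt2b38 (-1.38, adjusted p = 0.00516), Keg1 (-0.61, adjusted p = 0.0218) and the steroid reductase Hsd3b5 (-1.26, adjusted p = 0.0244). In this comparison 17.7% of all tested genes were called, 1.87% lower. The count was 1 without Con replicate 2, without Con replicate 3 or without HS replicate 1. Of 8 female-biased genes tested, Cyp3a44 was called higher (2.26, adjusted p = 0.00144). Hsd3b5 was at 163, 257.5 and 216 RPKM in Con and at 67.8, 76.3 and 125 RPKM in HS. Of the 16 male-biased genes, 4 were called higher and Elovl3 lower in A10-FMT than in HS, and 4 higher in Con-FMT. These counts stand beside 23.1% and 23.6% of all tested genes called in either direction, most of them lower (21% and 19% of all tested genes). Elovl3 was not called when any library of either group was left out (adjusted p from 0.0547 to 0.187, limma). The first count of 5 was 3 without HS replicate 1 or A10-FMT replicate 1, 2 without A10-FMT replicate 2 or 3 and 1 without HS replicate 2 or 3. The second was 0 without HS replicate 2 and 1 without HS replicate 1 or Con-FMT replicate 1 or 2. Hsd3b5 was called higher in the recipients than in HS (1.46 and 1.08, adjusted p = 0.00982 and 0.0373), at 226 to 263 RPKM in A10-FMT and 144 to 217 RPKM in Con-FMT, where Cyp4a12a was not called. The Con-FMT call was lost without HS replicate 1 or 2 or Con-FMT replicate 1 or 2 (adjusted p from 0.0898 to 0.124). Of 12 genes of growth hormone and androgen signalling 0 were called by limma in HS compared with Con, with 1 at an unadjusted p under 0.05. In HS+A10 compared with HS 7.32% of all tested genes were called. Of the 16 male-biased genes 1 was called there, Mup20, which was lower (-2.03, adjusted p = 0.00705 in limma). Of the 8 female-biased genes 1 was called, Cyp2b13, which was higher (2.57, adjusted p = 0.0146, and 0.0589 and 0.0662 without HS replicates 2 and 3).

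Gene lists of fasting, clock and liver zonation were counted in the same comparisons. Of all tested genes, 17.7% were called in HS against Con. The shares in HS+A10, A10-FMT and Con-FMT against HS were 7.32%, 23.1% and 23.6%, and 25.8% in Con-FMT against Con. Of 15 fasting response genes 8 were called higher in HS than in Con and 0 lower, with Pck1 of gluconeogenesis at 1.72 (adjusted p = 3.03e-06), and the count was 5 without Con replicate 1, without Con replicate 3 or without HS replicate 2. Cpt1a, Angptl4, Fgf21 and Pdk4 are among the genes that stand both on that list and on the PPAR alpha list. Of 19 clock genes 5 were called in HS compared with Con (3 without Con replicate 2 or HS replicate 2), and 14, 17 and 13 in HS+A10, A10-FMT and Con-FMT compared with HS, in both directions. The clock output gene Dbp was at 0.36 to 3.41 RPKM in Con, A10 and HS and at 47.3 to 98.8 RPKM in the other 3 groups. The hour at which livers were taken is not given in the sources used here. Of 9 pericentral hepatocyte markers tested, Cyp2e1, Glul, Slc1a2 and Oat were called higher in HS than in Con (4 of 9). In Con-FMT compared with HS, Cyp2e1 was called higher and Glul, Axin2 and Oat lower, and in Con-FMT compared with Con 4 were called higher and 3 lower. The summed level of 10 periportal markers was 4023 to 7316 RPKM over all libraries. The part of feeding state, clock and zonation in the Cyp4a differences was not tested.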

How the data were processed

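Liver mRNA was enriched with oligo(dT), sequenced and mapped by the authors to reference genes with SOAPaligner. The submitters' processing notes instead name Bowtie 0.12.2 and mm10. The authors deposited RPKM values with 2 decimals for 19057 genes, and these were used without further scaling. A date stood in place of the symbol in 26 rows. Low values of 10 genes gave a relative depth of 0.952 to 1.06, but only genes with nearly equal steps between libraries were kept. This range therefore cannot tell whether depth was equal, and the reads per library are unknown. The authors' own test, DEGseq, was not used.

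Groups came from the sample labels. limma 3.58.1 in R 4.3.3 was fitted to log2(RPKM + 1) of all 18 libraries with a coefficient for each group and a variance trend, for genes averaging 1 RPKM or more. Tests are two-sided and adjusted over all 10204 genes within each of 10 comparisons. The fit was tested on simulated data. Sequences, loci and identities came from the GENCODE annotation of GRCm38, whose chromosomes are those of mm10.

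The members, the gene lists and the tests were chosen with earlier results of these data known. Named genes are all members, all regulators, up to 4 called genes per list, comparison and direction, and the 5 genes most like a member. The alternatives tried were median scaling, quantile normalization, a pseudocount of 0.1, no filter, a filter at 5 RPKM, a replicate block, other sets of libraries, no variance trend and each library left out.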

Additional observations from a re-analysis of the deposited data

Results flagged for a closer look

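The effect of diet and STZ on Dbp, a clock output gene, differed with AOS by 3.92 on the log2 scale (adjusted p = 0.00978, limma interaction). In the fit as reported 1 gene passed the threshold, and no Cyp4a member did. Dbp was at 0.66, 0.58 and 0.68 RPKM in Con, 3.41, 0.36 and 1.78 RPKM in A10, 1.79, 2.22 and 1.17 RPKM in HS and 97.5, 47.3 and 52.8 RPKM in HS+A10. In A10-FMT and Con-FMT no library was below 47.3 RPKM either, and neither the Con-FMT mice nor their donors had AOS. The hour at which livers were taken is not given in the sources used here, and the cause was not tested. The number of genes that passed depended on single libraries. It was 118 (22 higher and 96 lower) without HS replicate 1, 15 without HS+A10 replicate 2, 8 with only the compared groups in the fit, 0 without HS replicate 3 (Dbp 3.76, adjusted p = 0.0506, limma) and 0 without Con replicate 3 and A10 replicate 3 (Dbp adjusted p = 0.158). With a pseudocount of 0.1 the adjusted p of Dbp was 0.0628.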

How the results depend on the processing

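In HS compared with Con 4 members were called under every alternative run, and in HS+A10 compared with A10 under all but the omission of HS+A10 replicate 1, with 3 members. Counts of members called in A10-FMT against HS were 1 with only the compared groups in the fit and 0 to 2 with each library left out. In Con-FMT against HS they were 0 with 12 libraries in the fit (A10 and HS+A10 left out), 0 with only the compared groups and 0 to 3 with each library left out. In A10-FMT against Con they were 5 with a pseudocount of 0.1, 4 with a filter at 5 RPKM, median scaling, quantile normalization or only the compared groups, and 1 without a filter, with 12 libraries or without Con replicate 3 and A10 replicate 3, and 1 to 4 with each library left out. The replicate block added Cyp4a10 to the members called in A10-FMT against Con. In Con-FMT against Con the counts were 1 without a filter, with 12 libraries and without Con replicate 3 and A10 replicate 3, and 1 to 2 with each library left out. There Cyp4a14 was called beside Cyp4a10 and Cyp4a12a with a pseudocount of 0.1, the replicate block or only the compared groups. In HS+A10 against HS the counts were 1 under the replicate block and 0 to 2 with each library left out. The causes were not tested.

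Libraries with the same number deviated together weakly at most (correlations of -0.13 to 0.26, 12 of 45 pairs over 0.1, 10 of 18 libraries closest to their own number). The highest were those of HS with HS+A10, 0.26 for replicate 3 and 0.23 for replicate 1. For Cyp4a10, replicate 1 was the highest library in every group but Con, where it was the lowest. What the numbers stand for is not given in the sources used here, and they were not used as pairs. With the replicate block 1 member, Cyp4a10, was called in HS+A10 against HS, and no other member count changed by over 1.5 times.

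Differences that did not pass the test changed sign. Cyp4a12b in HS against Con was -0.055 with quantile normalization and -0.053 with median scaling (-0.38 to 0.70 with a library left out). Cyp4a12a in A10-FMT against HS was 0.099 and 0.18 (-0.14 to 0.079), in Con-FMT against HS 0.087 with median scaling (-0.18 to 0.19), and in A10 against Con -0.053 and -0.072 (-0.017 to 0.029). The interaction of Cyp4a14 was -0.079 with a pseudocount of 0.1 (-0.20 to 1.54). With a library left out, A10-FMT against Con-FMT ran from -0.90 to 0.62 for Cyp4a10, -0.99 to 0.69 for Cyp4a14 and -0.20 to 0.17 for Cyp4a12a, and HS+A10 against HS from -0.059 to 0.28 for Cyp4a12a and -1.08 to 0.23 for Cyp4a12b. Cyp4a12b ran from -0.067 to 0.25 in A10 against Con and from -1.06 to 0.24 in HS+A10 against A10, and the interaction from -0.068 to 0.27 for Cyp4a12a and -1.18 to 0.12 for Cyp4a12b. The summed family RPKM of Con was 432 after median scaling.

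With 3 libraries per group and no read counts, precision rests on the spread between libraries. Counting intervals and detection limits are not given, since the reads per library are unknown, and Cyp4a31 was not tested.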
